A study of Mus musculus with 3 samples.

Results

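The barcodes described here are the conventional dendritic cells that came through a sort for Kupffer cells in mouse liver. They were 69 of the 9842 cell barcodes that passed the quality limits in 3 single-cell RNA libraries. The members were chosen by their measured values. A barcode was taken when it held at least 1000 UMIs (unique molecular identifiers, each standing for 1 captured RNA molecule) and 300 genes, and at most 10% mitochondrial UMIs. It also had to hold less than 1% of its UMIs in the Kupffer cell genes Clec4f, Cd5l, C1qa, C1qb and C1qc (the share called K below), and at least 2 UMIs summed over Flt3, Xcr1, Clec9a, Cd209a and Naaa. The levels of these 10 genes therefore chose the barcodes, and are given as a description with no test. A barcode with a UMI of Xcr1 or Clec9a and none of Cd209a is called an Xcr1/Clec9a barcode, and one with the reverse a Cd209a barcode.

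The study asked how liver macrophages differ early in exposure to an ethanol diet. The mice were male and 8 weeks old, and the labels used here give no strain or genotype. The groups were a mouse fed normal chow, a mouse fed a Lieber-DeCarli liquid diet that held 5% ethanol for 3 days and a mouse fed that diet for 10 days, with 1 mouse and 1 library each. Since the control mouse was given chow rather than an ethanol-free liquid diet, an effect of ethanol and one of the liquid food cannot be told apart. In all groups the livers were perfused and digested with collagenase, and live F4/80-high, CD11b-intermediate non-parenchymal cells were sorted and run on the 10x Chromium 3' version 2 kit. The gate was drawn for macrophages, so the barcodes are those dendritic cells that entered it, and their shares are not shares of the liver.

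Conventional dendritic cells take up antigen, carry it on MHC molecules and present it to T cells, and they develop under the cytokine FLT3L through its receptor FLT3. One kind, often called cDC1, depends on IRF8 and BATF3, bears the chemokine receptor XCR1 and the dead-cell receptor CLEC9A, and is known for presenting taken-up antigen to CD8 T cells. The other, cDC2, depends more on IRF4 and presents mainly to CD4 T cells. In mice part of it bears the lectin CD209a. In the liver both lie among macrophages that also present antigen and greatly outnumber them.

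The genes that told the 2 kinds apart are shown by their promoters, since each holds a short letter pattern of the families of factors named above. Each is the RefSeq window on GRCm38.p6 from 250 bases before to 50 bases after the gene's start, written on the gene's own strand. Capitals mark the match, which for Xcr1 and Cd209a lies on the opposite strand of the one shown. The Xcr1 window is chr9:123861980-123862279 (minus strand), the Clec9a window chr6:129408612-129408911 (plus strand) and the Cd209a window chr8:3748935-3749234 (minus strand).
Xcr1: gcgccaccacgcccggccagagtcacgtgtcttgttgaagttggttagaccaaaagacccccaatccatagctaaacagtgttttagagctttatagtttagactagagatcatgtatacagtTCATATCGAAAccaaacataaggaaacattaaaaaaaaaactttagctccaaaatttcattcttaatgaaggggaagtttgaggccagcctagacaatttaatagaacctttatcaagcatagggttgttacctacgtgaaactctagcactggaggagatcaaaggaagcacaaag
Clec9a: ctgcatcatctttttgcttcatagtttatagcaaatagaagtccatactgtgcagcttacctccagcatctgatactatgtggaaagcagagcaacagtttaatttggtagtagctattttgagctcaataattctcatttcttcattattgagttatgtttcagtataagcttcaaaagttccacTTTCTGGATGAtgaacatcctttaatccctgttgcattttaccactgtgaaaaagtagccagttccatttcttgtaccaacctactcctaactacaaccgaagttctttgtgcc
Cd209a: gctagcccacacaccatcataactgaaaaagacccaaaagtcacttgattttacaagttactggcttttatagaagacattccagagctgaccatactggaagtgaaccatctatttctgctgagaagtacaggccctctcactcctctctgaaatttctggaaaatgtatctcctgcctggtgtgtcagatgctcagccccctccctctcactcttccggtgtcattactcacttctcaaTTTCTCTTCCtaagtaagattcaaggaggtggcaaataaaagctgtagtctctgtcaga

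The capitals in the Xcr1 and Clec9a windows match the start of the composite element of AP-1 and IRF, which BATF is known to bind with IRF4 or IRF8. The capitals in the Cd209a window match the composite element of ETS and IRF, known for PU.1 with IRF4 or IRF8. Looked for on both strands, the first pattern was found in 4.56% of all 32851 windows of this length and the second in 2.72%. Both were among 8 patterns looked for. GGAAGT, the core that ETS factors bind, was found in the Xcr1 and Cd209a windows and in 23.8% of all windows. CCAAT was found in the Xcr1 window and in 37.4% of all. The other 4 patterns were in none of the 3 windows. They were GAGGAAGT (3.20% of all windows), which ends in GGAAGT, the AP-1 site TGANTCA (7.81%), the full composite element of AP-1 and IRF, which contains that site (0.119%), and the core of the interferon-stimulated response element (3.44%). Of the 30 genes named below for the largest differences between the kinds, 17 had a window (7 higher in Xcr1/Clec9a barcodes and 10 higher in Cd209a barcodes), and none of these held either capitalised pattern. A match describes letters and is not a binding site.

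The 3 libraries held between 16538895 and 21650747 UMIs and 2767 to 4061 quality barcodes. The dendritic cell barcodes numbered 29 in chow, 26 at 3 days and 14 at 10 days, or 1.05% (exact 95% interval 0.703% to 1.50%), 0.640% (0.419% to 0.937%) and 0.464% (0.254% to 0.778%) of quality barcodes. The intervals cover counting error only, and those of chow and 10 days overlap. With K allowed up to 2% the numbers were 61, 84 and 62, or 2.205%, 2.07% and 2.06% of quality barcodes, so the shares lay closer together in the same order. That order did not hold in every setting. With a mitochondrial limit of 5% the shares were 2.00%, 1.17% and 1.89%. With 1 UMI over the 5 genes in place of 2 they were 1.95%, 0.886% and 0.962%. The other settings kept the order. The barcodes were deep, with a median depth of 9971 (chow), 6664 (3 days) and 6572.5 UMIs (10 days), against 4675, 3117 and 3080 in the Kupffer barcodes of the same libraries (K of at least 1%). No barcode sequence among the 69 was shared between libraries, while 53 sequences among all quality barcodes were.

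Of the 69 barcodes, 38 were Xcr1/Clec9a barcodes (chow 13, 3 days 18, 10 days 7) and 16 were Cd209a barcodes (8, 5 and 3). A further 5 held UMIs of both kinds and 10 held neither, having entered through Flt3 or Naaa. Xcr1/Clec9a barcodes were 61.9% (38.4% to 81.9%) of the assigned barcodes in chow, 78.3% (56.3% to 92.5%) at 3 days and 70% (34.8% to 93.3%) at 10 days. These intervals are wide and overlap. The share in chow was 85.7% once barcodes with at least 10 UMIs of the plasmacytoid, T and NK or endothelial lists were left out.

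The rule genes differed in how many barcodes they brought in. Naaa, which encodes a lysosomal amidase, was seen in 49 of the 69 (330 UMIs), Clec9a in 36 (80 UMIs), the growth factor receptor gene Flt3 in 34 (71 UMIs), Xcr1 in 30 (133 UMIs) and Cd209a in 21 (207 UMIs). Naaa alone admitted 7 barcodes, Flt3 and Clec9a 3 each, Cd209a 2 and Xcr1 none. At the threshold, 13 barcodes held exactly 2 UMIs of the 5 genes and 50 low-K barcodes with 1 UMI stayed outside.

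Levels are given as CPM, counts per 1000000 UMIs of the summed barcodes, for chow, 3 days and 10 days in that order. Xcr1 stood at 483, 370 and 348 CPM in Xcr1/Clec9a barcodes, against 3.90, 2.47 and 1.97 CPM in Kupffer barcodes. Clec9a stood at 192, 185 and 471 CPM, against 16.8, 12.4 and 15.6 CPM in Kupffer barcodes. In the summed Cd209a barcodes Cd209a stood at 1320, 1516 and 1939 CPM, against 4.87, 2.55 and 2.52 CPM in Kupffer barcodes. Naaa was at 846, 1018 and 943 CPM in Xcr1/Clec9a barcodes and at 128, 81.2 and 55.4 CPM in Cd209a barcodes, where Kupffer barcodes held 49.5, 63.0 and 71.1 CPM. Naaa was thus highest in the first kind, and its level in Cd209a barcodes was close to that of Kupffer barcodes at 3 and 10 days.

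Markers that the rule did not use were present. Zbtb46, the transcription factor gene of conventional dendritic cells, was at 24.9, 56.7 and 21.4 CPM in the 69 barcodes of chow, 3 days and 10 days and at 1.60, 2.24 and 1.75 CPM in Kupffer barcodes, but only 15 of the 69 held a UMI of it. Itgax, which encodes the integrin CD11c, was at 181, 102 and 161 CPM, against 3.83, 4.01 and 4.27 CPM. Of the genes of the sorted proteins, Adgre1, encoding F4/80, was at 95.9, 108 and 75.0 CPM in the dendritic cell barcodes and at 877, 795 and 871 CPM in Kupffer barcodes, lower in each library. Itgam, encoding CD11b, was at 24.9, 17.0 and 75.0 CPM, against 29.3, 15.7 and 31.8 CPM, and so was higher than in Kupffer barcodes at 10 days. That 10-day value rests on few UMIs. A single barcode of 16162 UMIs, which also held 30 UMIs of endothelial genes, held 4 of them, and no other held more than 2. Only 28 of the 69 held an Adgre1 UMI, 12 an Itgam UMI. Free RNA, read in barcodes with 10 to 100 UMIs, held 2.21%, 2.01% and 1.58% of its UMIs in the K genes, where the median K of the dendritic cell barcodes was 0.190%, 0.168% and 0.168%.

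The label did not hold for every barcode. At 3 days 4 of the 26 barcodes held 59 to 83 UMIs of the plasmacytoid list (Siglech, Bst2, Ccr9, Tcf4, Ly6d, Cox6a2, Spib), where the other 22 held at most 5. These 4 were 2 Xcr1/Clec9a barcodes, a Cd209a barcode and a barcode with both. They held 10 to 25 UMIs of Siglech, the gene of the plasmacytoid lectin, no UMI of Xcr1, Naaa or Zbtb46, and a median of 7.5 Cst3 UMIs against 49.5 in the other 22. Their Irf8, which plasmacytoid cells also use, was 9 to 15 UMIs.

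T and NK genes were at 10 UMIs or more in 11 barcodes, 9 of them in chow, none at 3 days and 2 at 10 days. In chow 5 of the 8 Cd209a barcodes were among them, with 10 to 32 UMIs, while the 8 Cd209a barcodes of 3 and 10 days held 0 and 1 such UMI in all. Those 5 barcodes also held 93 to 181 UMIs of H2-Ab1, an MHC class II gene that T and NK cells of the mouse lack. Endothelial genes reached 31 UMIs in an Xcr1/Clec9a barcode at 3 days and 30 UMIs in a barcode with UMIs of neither kind at 10 days. Monocyte genes were at 10 UMIs or more in 32 barcodes, most in a Cd209a barcode of chow with 142 such UMIs and 1 UMI of H2-Ab1. Of the 69 barcodes 9 had 5 or fewer H2-Ab1 UMIs, and 6 of these had UMIs of neither kind. B cell and neutrophil genes stayed below 10 UMIs in every barcode, and basophil and mast cell genes were at 0. No doublet caller was run, and how far such barcodes are 2 cells, free RNA or another cell type was not tested.

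**Figure D1:**
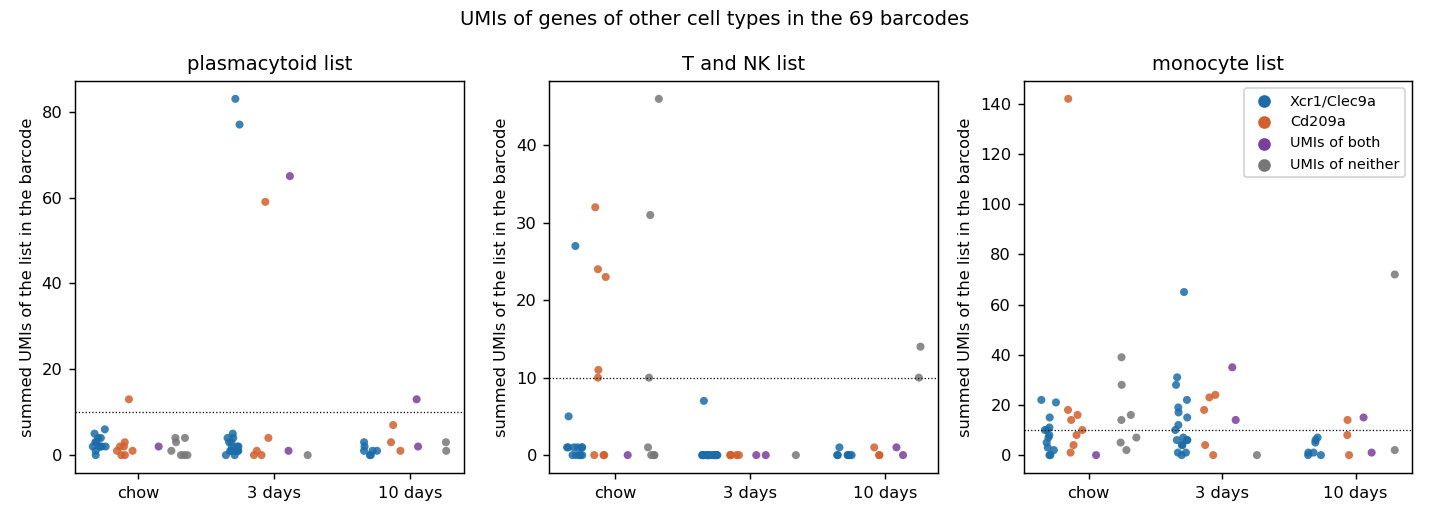
UMIs of the plasmacytoid, T and NK and monocyte lists in each of the 69 barcodes (vertical axes, summed UMIs of the list), by library and coloured by kind; the dotted line is at 10 UMIs. High plasmacytoid values (59 to 83) are at 3 days, and T and NK values on or above the line are in chow and at 10 days.

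K split the barcodes into separated ranges. In 54 barcodes K was at most 0.421%, and in 15 it was between 0.691% and 0.990%, just under the limit. Of the 15, 14 were Xcr1/Clec9a barcodes, and they came from all 3 libraries (5, 7 and 3). Within the Xcr1/Clec9a barcodes, the 24 with K under 0.5% all held Irf8, at 1388 to 4665 CPM. Of the 14 with higher K, 12 held an Irf8 UMI, at up to 2982 CPM. Their summed Cst3 was 7334 CPM, against 22823 CPM at lower K, their Xcr1 211 against 516 CPM, and their H2-Ab1 5817 against 10441 CPM. Clec9a went the other way, at 259 against 219 CPM, and Adgre1 stood at 298 against 41.9 CPM. A further 377 barcodes with 2 or more UMIs of the 5 genes had K of 1% or more, 138 of them under 2%, and were not counted as dendritic cells.

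**Figure D2:**
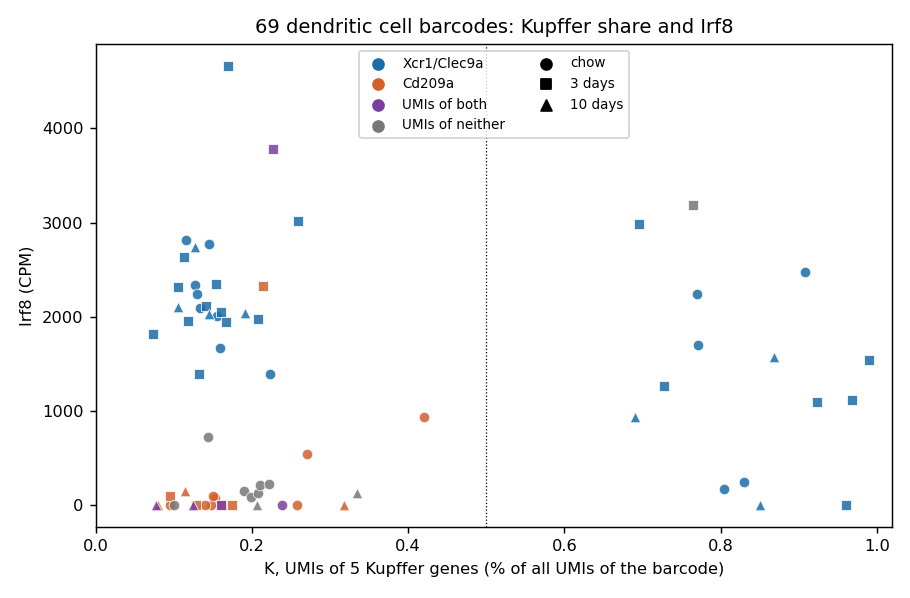
Irf8 (vertical axis, CPM of the barcode) against K (horizontal axis, percent of the barcode's UMIs in 5 Kupffer genes) for the 69 barcodes, with colour for kind and shape for library; the dotted line is at 0.5%. No barcode lies between 0.421% and 0.691%, and the right-hand group has Xcr1/Clec9a barcodes from 3 libraries.

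Xcr1/Clec9a barcodes differed from Cd209a barcodes in a set of genes that included Irf8, Cst3, Ppt1 and Tlr3 on one side and S100a4, S100a6, Klrd1 and Fcer1g on the other. UMIs were summed by kind in each library, and edgeR's quasi-likelihood test compared the 3 pairs of sums with the library as a block and Benjamini-Hochberg adjustment. Of 763 genes tested, 35 were higher in Xcr1/Clec9a barcodes (4.59%) and 23 were higher in Cd209a barcodes (3.01%) at an adjusted p under 0.05. All 58 called genes (7.6%) differed in the same direction in 3 of 3 libraries. The calls came from these same sums, so this describes them and is no separate support. Sums of the kinds that did not overlap were not particular to called genes. Those of H2-Ab1, Cd74 and Batf3, which were not called, did not overlap either. The 10 rule and K genes were left out of the test. A filter on level came before it and let in genes high in 1 kind alone, such as S100a4, Klrd1, Cxx1a and Cxx1b. The counts depended on the libraries: without 10 days edgeR called no gene at all (188 of 1348 genes had an unadjusted p under 0.05), without chow 7 in each direction and without 3 days 22 in each direction, and on all libraries DESeq2 called 16 genes higher in Xcr1/Clec9a barcodes and 12 higher in Cd209a barcodes.

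Irf8, the transcription factor gene that cDC1 require, lies at chr8:120736358-120756694 on the plus strand. Its level per barcode in Xcr1/Clec9a barcodes was 171, 2094 and 2814 CPM in chow (lowest, median and highest of 13), 0, 1964 and 4665 CPM at 3 days and 0, 2033 and 2738 CPM at 10 days. In Cd209a barcodes it was 0, 36.3 and 935 CPM in chow, 0, 0 and 2327 CPM at 3 days and 0, 0 and 143 CPM at 10 days. The medians stand far apart in each library, and the ranges overlap. The Cd209a barcode with 2327 CPM is the one with 59 plasmacytoid UMIs. The summed levels were 1976, 1720 and 1722 CPM in Xcr1/Clec9a barcodes and 103, 352 and 55.4 CPM in Cd209a barcodes (log2 fold change 3.52 ± 0.38 SE, adjusted p = 0.000881). Without the barcodes that held 10 UMIs of other types the log2 fold change was 4.70. With every barcode thinned to 1000 UMIs, Irf8 was seen in 84.6%, 77.8% and 57.1% of Xcr1/Clec9a barcodes (unthinned 100%, 94.4% and 85.7%) and in 0%, 20% and 0% of Cd209a barcodes (unthinned 50%, 40% and 33.3%). T and NK barcodes gave 5.88%, 5.32% and 5.10% after thinning. Kupffer barcodes also held Irf8, seen in 25.1% of them in chow after thinning (unthinned 67.3%).

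Cst3 encodes cystatin C, an inhibitor of lysosomal cysteine proteases, and lies at chr2:148871722-148875692 on the minus strand. Per barcode it was 513, 18187 and 46377 CPM (lowest, median and highest) in Xcr1/Clec9a barcodes of chow, 1643, 11290 and 29127 CPM at 3 days and 147, 13647 and 25526 CPM at 10 days. In Cd209a barcodes it was 1864, 3070 and 14960 CPM in chow, 970, 4569 and 10490 CPM at 3 days and 3638, 3710 and 5293 CPM at 10 days. The medians of Xcr1/Clec9a barcodes were higher in each library, with overlapping ranges. The summed levels were 19363, 17042 and 15086 CPM, against 3512, 5361 and 4099 CPM (log2 fold change 2.11 ± 0.19 SE, adjusted p = 0.000279).

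**Figure D3:**
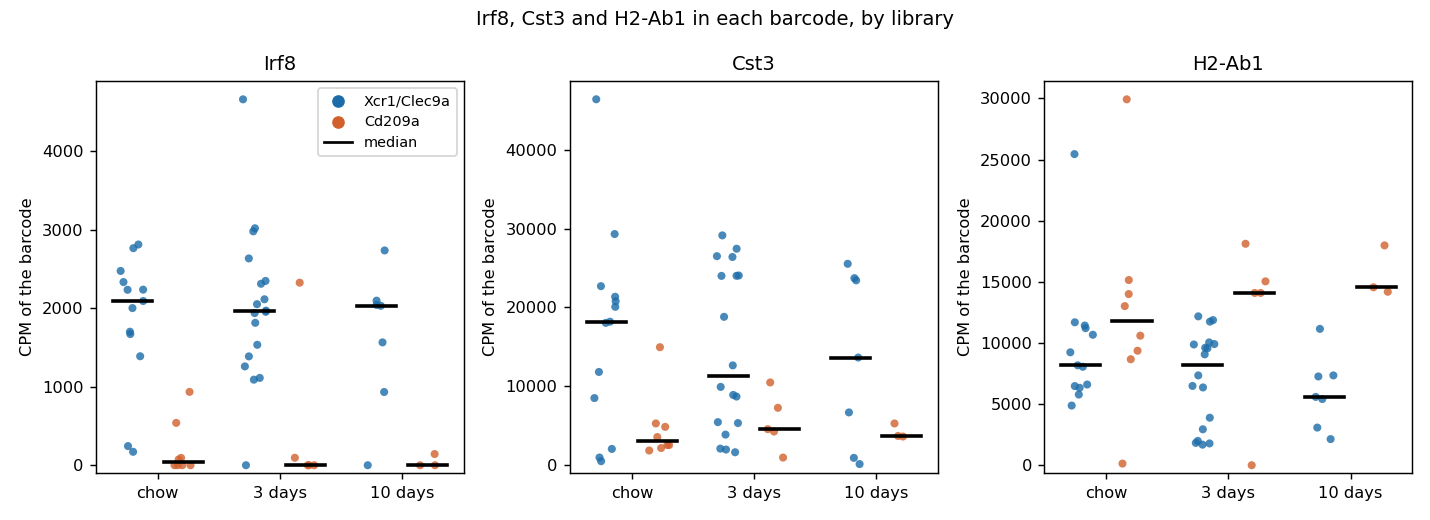
Irf8, Cst3 and H2-Ab1 in each Xcr1/Clec9a and Cd209a barcode (vertical axes, CPM of the barcode), by library, with a black line at the median. Irf8 and Cst3 have higher medians in Xcr1/Clec9a barcodes in each library, and H2-Ab1 has the higher median in Cd209a barcodes.

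Among the receptors and surface proteins, Tlr3, the sensor of double-stranded RNA (chr8:45395665-45411080, minus strand), had 31, 26 and 12 UMIs in the Xcr1/Clec9a barcodes of chow, 3 days and 10 days and none in Cd209a barcodes of any library. With a floor of 3 counts over the Cd209a sums it was at least 9.59-fold higher (adjusted p = 0.0129). Cd24a, a surface glycoprotein gene used to mark cDC1, was at 370, 393 and 328 CPM, against 38.5, 108 and 0 CPM (log2 fold change 2.85 ± 0.51 SE, adjusted p = 0.0106). Cadm1, an adhesion molecule gene of cDC1, was at 299, 170 and 348 CPM, against 12.8, 54.1 and 55.4 CPM (3.08 ± 0.63, adjusted p = 0.0180). Cd81, a tetraspanin gene, had a log2 fold change of 1.86 ± 0.46 SE (adjusted p = 0.0411), and the gene of the iron exporter ferroportin, Slc40a1, one of 1.82 ± 0.35 (adjusted p = 0.0140). Neither Cadm1, Cd81 nor Slc40a1 was tested once K was held under 0.5%. With K allowed up to 2%, Slc40a1 stood at 0.11 and was not called (adjusted p = 0.720).

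Further genes higher in Xcr1/Clec9a barcodes were Ppt1, Rab7b, Wdfy4 and Mpeg1. Ppt1, a lysosomal thioesterase gene (chr4:122836242-122859175, plus strand), was at 1201, 864 and 1168 CPM in Xcr1/Clec9a barcodes, against 51.3, 81.2 and 111 CPM in Cd209a barcodes (log2 fold change 4.01 ± 0.33 SE, adjusted p = 0.000272). Rab7b, a small GTPase gene of late endosomes, was at 235, 285 and 266 CPM, against 0, 0 and 55.4 CPM (4.83 ± 0.87, adjusted p = 0.0107). Its Cd209a value rests on a single UMI. Wdfy4, which mice need to cross-present antigen, was at 334, 393 and 533 CPM, against 12.8, 162 and 111 CPM (2.49 ± 0.52, adjusted p = 0.0208). Mpeg1, encoding the pore-forming protein perforin-2, was at 945, 910 and 1353 CPM, against 244, 271 and 443 CPM (1.89 ± 0.23, adjusted p = 0.00140).

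The remaining named genes on this side were Lpl, Zfos1, Cxx1a and Cxx1b. Lpl, the lipoprotein lipase gene, was at 235, 208 and 574 CPM, against 12.8, 54.1 and 55.4 CPM (log2 fold change 3.16 ± 0.57 SE, adjusted p = 0.0107). It kept its call in 9 of the 11 other settings in which it was tested, and stood at 0.096 with K allowed up to 2% (adjusted p = 0.844). Lpl was not tested with K under 0.5% or without barcodes with 10 UMIs of other types. Cxx1a had 101 UMIs in Xcr1/Clec9a barcodes and none in Cd209a barcodes, at least 14.0-fold higher (adjusted p = 0.00703), and Cxx1b had 82 against 2. Cxx1a and Cxx1b are near-identical copies, so the split of reads between them is uncertain. Zfos1 had a log2 fold change of 2.06 ± 0.50 (adjusted p = 0.0396), and like Lpl it was not tested in those 2 settings. Apoe, Vsig4, Sdc3 and Ctsb, which Kupffer cells also express, were called higher in Xcr1/Clec9a barcodes too. With K under 0.5% their log2 fold changes were 0.10, 0.08, 0.13 and -0.20, and none of them was called.

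On the Cd209a side S100a4 had the largest difference, followed by Klrd1 and S100a6. S100a4, the gene of a small calcium-binding protein (chr3:90603771-90606045, plus strand) was at 14.2, 7.71 and 0 CPM in Xcr1/Clec9a barcodes, 3 UMIs in all, against 679, 541 and 1108 CPM in Cd209a barcodes (log2 fold change -5.89 ± 0.49 SE, adjusted p = 0.000272). S100a6, a gene of the same family next to it on the chromosome (chr3:90612882-90624181, plus strand), was at 156, 208 and 123 CPM, against 1308, 1245 and 2271 CPM (-3.03 ± 0.29, adjusted p = 0.000469). S100a10 had a log2 fold change of -1.98 ± 0.49 (adjusted p = 0.0411), and Anxa2, the gene of its annexin partner, one of -1.75 ± 0.42 (adjusted p = 0.0377). Lgals1, a galectin gene, stood at -1.78 ± 0.32 (adjusted p = 0.0107).

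Klrd1, which encodes the CD94 chain of receptors of NK cells, was at 35.5, 38.6 and 20.5 CPM in Xcr1/Clec9a barcodes and at 410, 325 and 831 CPM in Cd209a barcodes (log2 fold change -3.55 ± 0.48 SE, adjusted p = 0.00249). It lay at chr6:129591782-129598775 on the plus strand. At 3 and 10 days the Cd209a barcodes held 12 and 15 Klrd1 UMIs beside 0 and 1 UMI of the T and NK list. Without barcodes holding 10 UMIs of other types its log2 fold change was -4.51. Fcer1g, a signalling adaptor gene, was at 576, 694 and 512 CPM, against 2166, 1841 and 2215 CPM (-1.68 ± 0.19, adjusted p = 0.000889).

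Ifitm3, an interferon-inducible membrane protein gene, was at 355, 625 and 287 CPM in Xcr1/Clec9a barcodes, against 2820, 1327 and 4099 CPM in Cd209a barcodes (log2 fold change -2.42 ± 0.40 SE, adjusted p = 0.00778). Napsa, an aspartic protease gene, was at 107, 270 and 123 CPM, against 577, 1191 and 554 CPM (-2.15 ± 0.27, adjusted p = 0.00161). The membrane protein genes Ms4a6c, Tmem176b and Emp3 had log2 fold changes of -2.56, -2.16 and -1.99, and the chemokine gene Ccl6 one of -1.46. Tspo, a gene of the outer mitochondrial membrane, stood at -1.34. Their sums were lower in Xcr1/Clec9a barcodes in 3 of 3 libraries. Ccl6 kept its call in 8 of the 15 other settings in which it was tested.

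**Figure D4:**
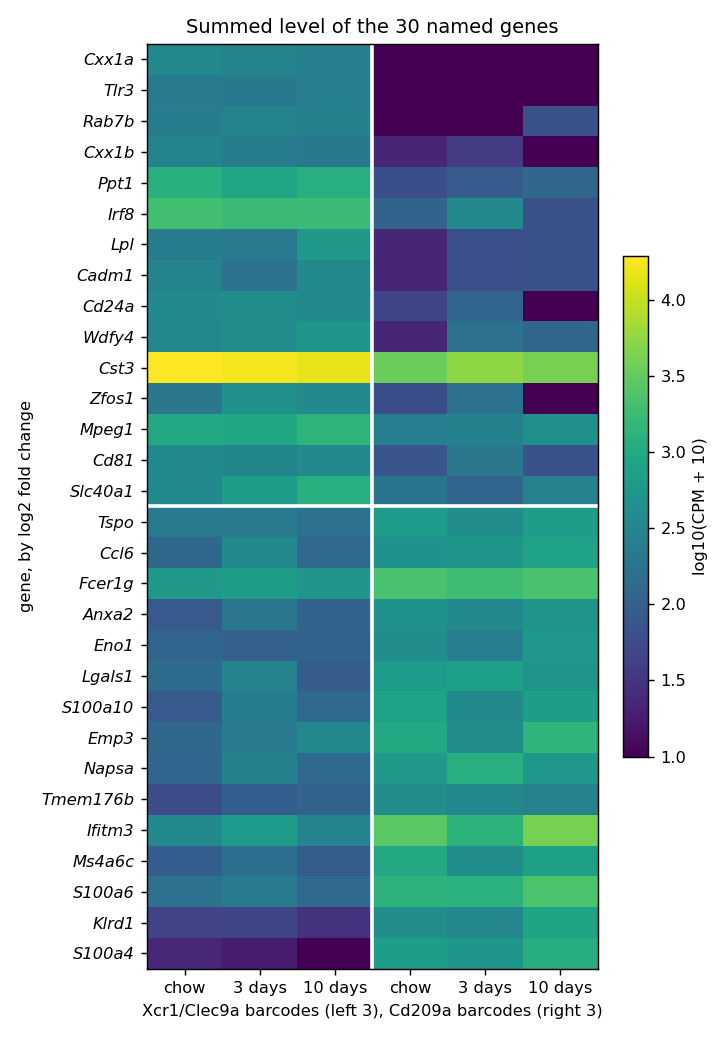
Summed level of the 30 named genes (colour, log10 of CPM plus 10) in Xcr1/Clec9a barcodes (left 3 columns) and Cd209a barcodes (right 3 columns) of each library, with genes ordered by log2 fold change. Tlr3 and Cxx1a are at 0 CPM in all 3 Cd209a sums, and S100a4 is at 0 to 14.2 CPM in the Xcr1/Clec9a sums.

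Lists of genes were chosen with earlier results of these data known, so their counts describe and do not test. Of the 13 genes of the cDC1 list 8 were tested and 6 were higher in Xcr1/Clec9a barcodes (Irf8, Cd24a, Rab7b, Tlr3, Cadm1 and Wdfy4), where 4.59% of all tested genes were. The median log2 fold change was 2.97, against -0.01 over all tested genes. The exceptions were Ifi205 at 1.85 (adjusted p = 0.105) and Batf3 at 0.99 (adjusted p = 0.152). Tlr3, Rab7b and Cadm1 held 0 to 2 UMIs in each Cd209a sum. All 6 called genes, and Ifi205 and Batf3 too, passed the filter on level only through the Xcr1/Clec9a sums. The count and the median are therefore in large part set by that filter. Itgae, the gene of integrin CD103, was too low to test, with 16, 8 and 5 UMIs in Xcr1/Clec9a barcodes and none in Cd209a barcodes. Of the 16 genes of the cDC2 list 4 were tested and only S100a4 was higher in Cd209a barcodes. S100a4 in turn passed the filter only through the Cd209a sums. Csf1r, Sirpa and Ccr2 did not pass, at 0.51, -0.26 and 0.28. Irf4 had 2, 2 and 0 UMIs in Cd209a barcodes. The lectin gene Mgl2 had 3, 15 and 5 UMIs in Cd209a barcodes, against 0, 2 and 0 in Xcr1/Clec9a barcodes.

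Genes of MHC class II presentation were high in both kinds. Of the 13 genes of the MHC class II list 10 were tested and none passed (7.6% of all genes tested passed in either direction), with a median log2 fold change of -0.42. H2-Ab1, a chain of the class II molecule, was 4879, 8171 and 25441 CPM (lowest, median and highest) in Xcr1/Clec9a barcodes of chow, 1682, 8206 and 12174 CPM at 3 days and 2136, 5587 and 11149 CPM at 10 days. In Cd209a barcodes it was 135, 11802 and 29921 CPM in chow, 0, 14089 and 18108 CPM at 3 days and 14186, 14550 and 17977 CPM at 10 days. The Cd209a median was higher in each library, and at 10 days the ranges did not overlap. The test of the sums gave a log2 fold change of -0.56 (adjusted p = 0.160). Both kinds stood above Kupffer barcodes, where summed H2-Ab1 was 2392, 1688 and 1591 CPM. Cd74, the invariant chain gene, had a log2 fold change of -0.50 (adjusted p = 0.235), Lgmn, a lysosomal protease gene, one of 1.23 (adjusted p = 0.0566), and Ifi30, the lysosomal thiol reductase gene, one of -1.13 (adjusted p = 0.0798).

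In the other lists a few genes were called, to be read against 4.59% of all tested genes called higher in Xcr1/Clec9a barcodes and 3.01% higher in Cd209a barcodes. Wdfy4 was the single called gene of 11 tested in the list of MHC class I and cross-presentation (median 0.08), a share near that of all genes. Of 6 tested glycolysis genes Eno1 and Gapdh were higher in Cd209a barcodes. Apoe and Lpl were higher in Xcr1/Clec9a barcodes among 3 tested genes of lipid handling, Tlr3 among 2 of pattern recognition and Irf8 among 6 transcription factor genes. Of these genes Wdfy4, Lpl, Tlr3 and Irf8 passed the filter on level only through the Xcr1/Clec9a sums, and Eno1 only through the Cd209a sums. None of 5 tested interferon response genes and none of 6 tested immediate-early genes passed.

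The comparisons between diets have 1 library on each side, so they carry no test. A gene is called higher or lower where its summed UMIs in all dendritic cell barcodes gave a ratio of at least 2 either way, an exact 95% interval that excludes 1, and 20 UMIs or more over the pair. The intervals cover counting error and not the difference between mice or sorts. The comparisons share libraries: both ethanol times are set against the same chow mouse. The barcodes of other types named above and the largest barcode, which held 7.09% of the summed total in chow, 8.98% at 3 days and 17.3% at 10 days, move with the diets, and their part in each ratio was not tested beyond the values given.

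At 3 days against chow, 109 of 2802 genes were higher (3.89%) and 87 lower (3.1%), and the leading higher genes were those of plasmacytoid cells and the water channel gene Aqp1. All 6 tested plasmacytoid genes were called higher. Ly6d had 71 UMIs at 3 days and none in chow, at least 37.7-fold higher, and Cox6a2 had 38 UMIs and none, at least 20.2-fold. Siglech had 60 UMIs at 3 days and 1 in chow (95.7-fold, 16.5 to 3842). These UMIs lay in 4 or 5 of 26 barcodes. Tcf4 was 6.54-fold higher (3.22 to 14.6) and Tsc22d1 7.18-fold (2.36 to 29.2). Aqp1 was 17.5-fold higher with 95.5% of its UMIs at 3 days in 1 barcode.

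Genes lower at 3 days were led by T and NK genes and chemokine genes. The T cell receptor gene Trbc2 had 1 UMI at 3 days and 108 in chow (ratio 0.0148, 0.000371 to 0.0840), Nkg7 1 and 82 (0.0195), and Cd3g 2 and 52 (0.0613). All 4 tested genes of the T and NK list were lower, where 3.1% of all genes were. Cxcl9, an interferon-induced chemokine gene, had 1 UMI at 3 days and 108 in chow, of which 85.2% lay in 1 barcode. Gbp2, a guanylate-binding protein gene, had 1 and 52 UMIs (0.0307), with 50% of the chow UMIs in 1 barcode. Ccl5, a chemokine gene of T and NK cells and of dendritic cells, had 8 and 321 UMIs (0.0398), with 125 of the chow UMIs in Cd209a barcodes.

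At 10 days against chow, 99 of 2300 genes were higher (4.3%) and 68 lower (2.96%). The first 3 genes came from the single barcode of 16162 UMIs that also held the endothelial UMIs: all 283 UMIs of Retnla, all 100 of Lyz1 and all 35 of Fn1 lay in it. Myo1c, a myosin gene, was 8.29-fold higher (3.55 to 21.5; 22 UMIs in 8 of 14 barcodes, against 8 UMIs in chow). Pltp, a phospholipid transfer protein gene, was 4.45-fold higher with 71.0% of its UMIs in 1 barcode.

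Lower at 10 days were genes spread over many barcodes as well as those of a few. Hsd17b10, a mitochondrial dehydrogenase gene, had 1 UMI at 10 days and 32 in 17 of the 29 chow barcodes (ratio 0.0942, 0.00231 to 0.564). Ube2e1, a ubiquitin-conjugating enzyme gene, had 2 UMIs and 35 in 20 chow barcodes (0.172, 0.0201 to 0.670). Ms4a6b had 3 and 66 UMIs (0.137), Trbc2 4 and 108 (0.112) and Ccl5 18 and 321 (0.169). Cxcl10 had none at 10 days and 73 UMIs in 2 chow barcodes.

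Between the ethanol times, 75 of 1709 genes were higher at 10 days than at 3 days (4.39%) and 56 lower (3.28%). Retnla, Lyz1 and Fn1 led again, at least 178-fold, 63.0-fold and 22.0-fold higher, from the same barcode. Cxcl9 had 34 UMIs at 10 days, 19 of them in Xcr1/Clec9a barcodes, and 1 at 3 days (64.3-fold, 10.8 to 2612). Myo1c was 13.9-fold higher (4.16 to 72.3), and Ccl9 12.5-fold (4.84 to 40.9) with 75.8% of its UMIs in 1 barcode. Siglech, Ly6d and Cox6a2 had no UMI at 10 days, against 60, 71 and 38 at 3 days. Ly6c2, a gene of monocytes and plasmacytoid cells, had 2 and 53 UMIs (0.0713), Atrx, a chromatin remodeller gene, 2 and 26 (0.145) and Dctpp1, a nucleotide phosphatase gene, 2 and 23 (0.164).

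Summed over all dendritic cell barcodes, Irf8, Cst3 and H2-Ab1 had ratios of 0.860 to 1.37 against chow. Irf8 was at 1451 CPM at 3 days and 932 CPM at 10 days in the summed barcodes, against 1059 CPM in chow (1.37-fold, 1.15 to 1.62, and 0.880-fold, 0.685 to 1.12). Cst3 gave 1.26-fold (1.19 to 1.32) at 3 days and 0.860-fold (0.797 to 0.927) at 10 days. H2-Ab1 gave 1.00-fold (0.941 to 1.07) and 0.891-fold (0.821 to 0.966). For H2-Ab1 and Cd74 the summed levels of the kinds went opposite ways beneath these totals. For Xcr1/Clec9a barcodes at 3 days the median H2-Ab1 per barcode did not fall, at 8206 CPM against 8171 CPM in chow. It was 5587 CPM at 10 days. A single Xcr1/Clec9a barcode of chow held 401 of the 1487 H2-Ab1 UMIs and 724 of the 3573 Cd74 UMIs of that sum. The 3-day sum includes the plasmacytoid barcodes, with 8 H2-Ab1 UMIs each. H2-Ab1 was at 8139 CPM at 3 days and 6313 CPM at 10 days in Xcr1/Clec9a barcodes, against 10570 CPM in chow, and at 12941 and 15785 CPM in Cd209a barcodes, against 11037 CPM in chow. Cd74 was at 21123 and 16480 CPM in Xcr1/Clec9a barcodes, against 25398 CPM, and at 31974 and 37441 CPM in Cd209a barcodes, against 26086 CPM. No ratio of these genes reached 2 either way in either kind. None of 13 class II genes was called at 3 days against chow (median log2 ratio 0.06, against 0.02 over all genes). Among all genes 3.89% were called higher and 3.1% lower, so few calls would come from any 13. At 10 days against chow Ifi30 was higher and H2-DMb2, a chain of the H2-DM family, lower (median -0.05, against -0.02). There 4.3% of all genes were called higher and 2.96% lower. Without the barcode of 16162 UMIs Ifi30 was 1.97-fold higher (1.35 to 2.86) and no longer called. Of the rule genes, Clec9a was 2.80-fold higher at 10 days than in chow and Flt3 0.333-fold at 10 days against 3 days.

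Ccr2, the receptor gene for monocyte-attracting chemokines, was called higher at both ethanol times, at 10 days with the largest barcode included. It was at 533 CPM at 3 days (94 UMIs) and 600 CPM at 10 days (56 UMIs), against 220 CPM in chow (62 UMIs), or 2.42-fold (1.74 to 3.39) and 2.72-fold (1.86 to 3.97). In Xcr1/Clec9a barcodes alone it was at 640 and 348 CPM, against 178 CPM, and in Cd209a barcodes at 135 and 498 CPM, against 320 CPM, so the 3-day value lay below chow there. Of the 56 UMIs at 10 days 24 lay in the barcode of 16162 UMIs that also held Retnla, and without it Ccr2 was 1.88-fold higher (1.19 to 2.93), under the ratio of 2 needed for a call. Kupffer barcodes held 17.1 and 11.9 CPM, against 11.5 CPM. Mrc1, the mannose receptor gene, was also higher at both times, at 204 and 225 CPM, against 67.5 CPM, and 2.49-fold higher at 10 days (1.13 to 5.32) without that barcode. Kupffer barcodes held 1325 and 1400 CPM of Mrc1, against 861 CPM.

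Immediate-early genes are switched on within minutes of a stimulus. At 10 days against chow, 5 of 13 tested were called higher, where 4.3% of all genes were. Of the 13, 12 had a ratio above 1, with a median log2 ratio of 0.92, against -0.02 over all genes. Klf2, a transcription factor gene, was at 450 CPM at 10 days and 199 CPM in chow (2.26-fold, 1.48 to 3.43). In Xcr1/Clec9a barcodes it was at 451 CPM at 10 days and 135 CPM in chow, and in Cd209a barcodes at 166 CPM at 10 days (3 UMIs) and 256 CPM in chow (20 UMIs). Without the barcode of 16162 UMIs Klf2 was 1.95-fold higher (1.21 to 3.10) and no longer called, and 4 of 12 tested were. Rhob, a small GTPase gene, was at 161 and 46.2 CPM (3.48-fold, 1.54 to 7.94), and Dusp1, a phosphatase gene, at 225 and 60.4 CPM (3.72-fold, 1.87 to 7.52). Fos was 2.38-fold (1.13 to 4.94) and Ier2 2.14-fold (1.08 to 4.14) higher. At 3 days against chow only Fos (4.37-fold, 2.54 to 7.82) and Egr1 (2.87-fold, 1.26 to 6.96) of 12 were called higher, where 3.89% of all genes were, with a median log2 ratio of -0.02, against 0.02. In Kupffer barcodes of the same libraries Klf2, Rhob and Dusp1 were also above chow at 10 days, and they were above chow at 3 days too. Klf2 was at 1032 CPM at 10 days and 745 CPM at 3 days there, against 454 CPM in chow. Rhob was at 531 and 309 CPM, against 207 CPM, and Dusp1 at 608 and 582 CPM, against 274 CPM.

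**Figure D5:**
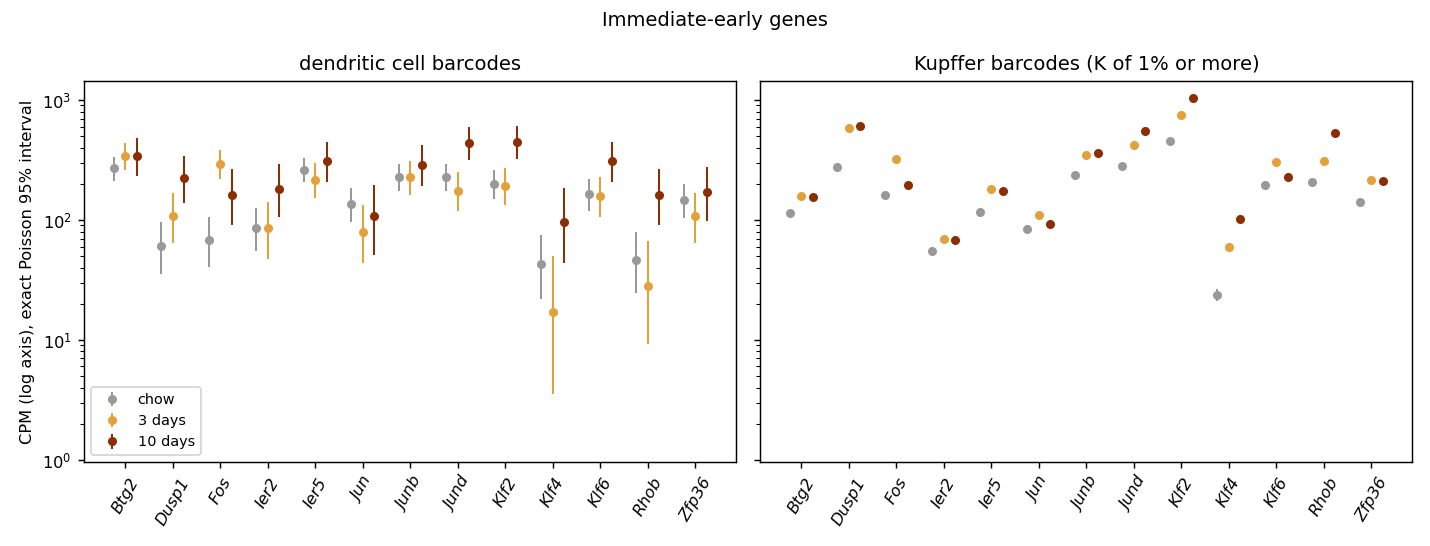
Levels of the 13 immediate-early genes tested at 10 days against chow (vertical axis, CPM on a log scale, with exact Poisson 95% intervals) in the dendritic cell barcodes (left) and in Kupffer barcodes with K of at least 1% (right), in chow, at 3 days and at 10 days. Klf2, Rhob and Dusp1 are highest at 10 days in both panels.

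Interferon response genes had ratios mostly below 1 at both ethanol times. At 10 days against chow 4 of 13 tested were called lower (Gbp2, Isg15, Ifi27l2a and Rtp4), where 2.96% of all genes were, and none higher, with a median log2 ratio of -0.41, against -0.02 over all genes. Without the barcode of 16162 UMIs 7 of 13 were called lower, with a median of -2.02. On the chow side, the Cd209a barcode with 142 monocyte UMIs held 195 UMIs of the interferon response list. The other Cd209a barcodes of chow held 12 to 58. Its part in these ratios was not tested. Ifi27l2a was at 246 CPM at 10 days and 538 CPM at 3 days, against 661 CPM in chow (0.373-fold, 0.231 to 0.576, at 10 days). Of its 186 chow UMIs 99 lay in Cd209a barcodes. In Xcr1/Clec9a barcodes it was at 225 and 640 CPM, against 377 CPM, so the 3-day value lay above chow there. In Kupffer barcodes it was at 830 and 1217 CPM, against 1671 CPM. At 3 days against chow Gbp2, Igtp and Rtp4 were lower and Bst2, which is also on the plasmacytoid list, was higher, with a median of -0.55, against 0.02 over all genes. Of 7 tested chemokine ligand genes 5 were lower at 3 days, where 3.1% of all genes were (Cxcl9, Cxcl10, Cxcl16, Ccl5 and Ccl9). Cxcl16 was at 79.3 CPM at 3 days and 213 CPM in chow (0.372-fold, 0.192 to 0.674), with 49 of the 60 chow UMIs in Xcr1/Clec9a barcodes.

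Of the 12 genes of the list for mature dendritic cells, Ccl5 held most UMIs in chow, and the others were low. The list held 34 UMIs at 3 days and 27 at 10 days, against 382 in chow, and without Ccl5 26 and 9, against 61. Without Ccl5 this was 147 CPM at 3 days and 96.4 CPM at 10 days, against 217 CPM in chow, where Kupffer barcodes held 74.5 to 91.1 CPM of the same 11 genes. In chow 8 barcodes held 11 to 123 UMIs of the list, and none held 10 at 3 or 10 days. Ccr7, the receptor gene of dendritic cells that move to lymph nodes, had 6 UMIs, all in Cd209a barcodes of chow. Il12b, a cytokine gene of cDC1, had no UMI in any of the 69 barcodes, which allows up to 10.7 CPM in chow, 17.0 CPM at 3 days and 32.1 CPM at 10 days. Of the 12 costimulation genes 4 reached the 20 UMIs needed at 3 days against chow and none was called. Among all genes 3.89% were called higher and 3.1% lower, so no call among so few says little. Proliferation genes reached 50 UMIs or more in 5 barcodes.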

How the data were processed

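Single-cell RNA was measured in 3 libraries, 1 per diet. The authors deposited raw UMI counts per gene and barcode for all barcodes, with no choice of cells and no doublet calls. Per the submitters' processing notes they were made with Cell Ranger 2.2.0 on GRCm38 (mm10). The annotation release is not given in the sources used here.

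Barcodes were chosen by the rule given in the results. The members, the gene lists and the tests were chosen with earlier results of these data known. Kupffer barcodes met the same quality limits with K of at least 1%. This replaced a planned limit of 3%, which left 59 to 259 barcodes per library. T and NK barcodes had K under 1%, were no dendritic cell barcodes and held at least 2 UMIs over Cd3d, Cd3e, Cd3g, Trac, Nkg7 and Klrb1c. Free RNA was read in barcodes with 10 to 100 UMIs. CPM is counts per 1000000 UMIs of the summed barcodes.

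The kinds were compared on UMI sums of the 3 libraries with edgeR 4.0.16 (glmQLFit and glmQLFTest, TMM factors, filterByExpr, the library as a block because both kinds came from the same mouse) and, as an alternative, DESeq2 1.42.0, in R 4.3.3. On counts simulated for this comparison (798 genes), the share of genes recovered was 11.5% at a log2 fold change of 1, 69.2% at 2 and 97.5% at 3, with 0.283% false calls. The simulated counts were independent, with a fixed dispersion and no difference between libraries or barcodes. These shares therefore need not hold for the real sums. Diets have 1 library each, so ratios of CPM carry exact conditional binomial 95% intervals and no test. Shares carry Clopper-Pearson intervals. All intervals and the floor of 3 counts cover counting error only.

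Named genes are the 15 highest and 15 lowest log2 fold changes among genes called between kinds with 1 direction in 3 libraries, and the 6 highest and 6 lowest ratios among genes called between diets with at least 100 CPM in a library of the pair. Mitochondrial, ribosomal, hepatocyte, erythroid and plasma cell genes and genes with only a Gm or Rik symbol were left out of these ranks. Members of the lists, the rule genes and the sorted proteins' genes are named as well. A gene that met this rule is not reported here. Of 28692 gene IDs, 28339 were found in the GENCODE vM21 annotation (GRCm38), which gave the gene positions.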

Additional observations from a re-analysis of the deposited data

Results flagged for a closer look

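In 5 cases a gene was called higher between diets in one kind of barcode and lower in the other, with at least 20 UMIs over the pair in each kind. Genes that moved apart without a call in both kinds are not counted. The difference was not tested, since each diet has 1 library, and all values are log2 ratios of CPM plus 10. At 3 days over chow S100a10 stood at 1.50 in Xcr1/Clec9a barcodes and at -1.15 in Cd209a barcodes. At 10 days over chow Irf7, an interferon regulatory factor gene, stood at 1.11 and -4.80. The chromatin protein gene Hmgb2 stood at -2.30 and 1.66 and the tubulin gene Tubb5 at -1.50 and 1.60, also at 10 days over chow. Both are on the proliferation list, and 1 of the 3 Cd209a barcodes at 10 days held 63 UMIs of that list. At 10 days over 3 days Ifitm3 stood at -1.10 and 1.62.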

How the results depend on the processing

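The number of dendritic cell barcodes in chow, at 3 days and at 10 days was 61, 84 and 62 with K under 2%. It was 10, 11 and 6 without barcodes with 2 or more UMIs of T and NK, B, plasma or endothelial genes. With 1 UMI over the 5 genes in place of 2 it was 54, 36 and 29, and with a mitochondrial limit of 5% it was 26, 22 and 11. Without barcodes with 10 UMIs of plasmacytoid, T and NK or endothelial genes, a setting chosen after seeing the data, it was 19 in chow, where Xcr1/Clec9a barcodes were then 85.7% of those assigned.

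Between the kinds, genes higher in Xcr1/Clec9a barcodes numbered 9 without barcodes with 2 UMIs of other types, 21 without those with 10, 94 without a filter and 16 with DESeq2. Genes higher in Cd209a barcodes numbered 43 with a mitochondrial limit of 5%, 46 with K under 2%, 41 without barcodes with 10 UMIs of other types, 35 without a filter and 12 with DESeq2. Leaving out a library gave 0 to 22 in each direction. Without the replicate block edgeR called 38 and 27 genes, of which 52 were shared with the 58. No paired analysis was possible between diets because each has 1 sample. With K under 0.5% 57 genes were called, 37 of them shared with the 58.

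For 3 days over chow, higher genes numbered 64 and 27 in Xcr1/Clec9a or Cd209a barcodes alone, 172 and 38 with minima of 10 and 40 UMIs, and 24 and 58 without barcodes with 2 or 10 UMIs of other types, and lower genes 38, 37, 147, 41 and, without barcodes with 10, 50. For 10 days over chow, higher genes numbered 48 and 24 in the kinds alone, 62 with K under 0.5%, 65 with a mitochondrial limit of 5%, 159 and 41 with minima of 10 and 40 UMIs, and 19 and 40 without barcodes with 2 or 10 UMIs of other types, and lower genes 33 and 30 in the kinds alone, 36 with 40 UMIs and 39 without barcodes with 10. For 10 days over 3 days, higher genes numbered 14 in Cd209a barcodes alone, 129 and 34 with 10 and 40 UMIs, and 25 and 46 without barcodes with 2 or 10, and lower genes 14, 85, 30 and, without barcodes with 2, 18.

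Some log2 ratios changed sign. Without barcodes with 2 UMIs of other types Trbc2 and Cxcl9 stood at 1.31 at 3 days over chow, Fn1 at -2.98 at 10 days over chow, and Cxcl9 at -1.31, Ccl9 at -0.057 and Ly6c2 at 1.93 at 10 days over 3 days. Without those with 10, Trbc2 stood at 0.74 and Aqp1 at -0.44 at 3 days over chow, Lyz1 at -1.17 and Fn1 at -1.53 at 10 days over chow, and Ly6c2 at 0.049 at 10 days over 3 days. Aqp1 stood at -0.049 with K under 0.5%. In Xcr1/Clec9a barcodes alone Lyz1 stood at -1.28 and Ccl9 at -0.82, and in Cd209a barcodes alone Fn1 stood at -1.19. Without the largest barcode at 10 days, a setting chosen after seeing the data, Lyz1 stood at -0.77 and Fn1 at -1.28 at 10 days over chow. Over all 26 barcodes of 3 days Trbc2 and Cxcl9 held 1 UMI each, and Ly6c2 held 2 UMIs at 10 days, so their values rest on almost no UMIs on that side. The cause of the sign changes was not tested. The remaining values for named genes kept their direction, with 526 the same, 88 moved and 75 weaker. Depth limits the Cd209a sums most, with 18055 UMIs at 10 days.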
